A study of Mus musculus with 12 samples.

Results

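The genes described are the collagen chain genes of the mouse, taken as every gene of the deposited table whose name has the form Col, a type number, the letter a and a chain number. The rule found 44 of the 55573 genes listed. By the usual classes they were 11 fibrillar chains, 6 chains of the type IV network, 3 of the short-chain networks, 9 FACITs (fibril-associated collagens with interrupted triple helices), 6 chains of the type VI beaded filament, 2 further genes related to type VI, 1 anchoring fibril chain, 4 transmembrane collagens and 2 multiplexins. No measured value enters this rule, which was set with earlier results of these data known.

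RNA was sequenced from mouse embryonic fibroblasts with a β-actin-TVA transgene and a p53−/− genotype, both shared by all 4 groups as labelled. Reads of Trp53, the gene of p53, lay at 31.5 to 54.5 reads per 1000000 reads of the TMM-scaled library (RPM) in every library, and since the labels do not give the deleted part, these gene totals do not show the genotype. TVA is the receptor that lets the avian RCAS retrovirus enter mammalian cells, and here the β-actin promoter drives it. The cells carried either RCAS-GFP, called vector below, or RCAS-HOXB13, which adds HOXB13, a homeobox transcription factor of posterior body regions and the prostate. The sources used here do not give the species of the insert. A plate was harvested confluent at day 1 in DMEM with 5% FBS, and another after 21 days in OsteoMAX-XF, an osteogenic differentiation medium. Day, medium and plate therefore cannot be told apart. Each of the 4 groups had 3 libraries from triplicate wells, and nothing says that wells of a group came from separately transduced cultures, so p-values measure the spread between these wells, which may be technical. Vector and HOXB13 are also 2 cultures that differ in more than the virus: Xist lay at 151 to 452 RPM in the vector libraries and 0.139 to 0.519 in the HOXB13 libraries, and the Y-linked Ddx3y at 0 to 0.363 against 96.8 to 108 RPM.

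The libraries held 11109392 to 15154317 reads in genes. Hoxb13 reached 324 to 331 RPM at day 1 and 238 to 254 at day 21 in the HOXB13 libraries, against 0.15 to 0.571 in the vector libraries. All 6 fibroblast markers, which include Pdgfra, Vim and Fn1, were measured. Their summed level was lower in HOXB13 at day 1, at 14470 to 14860 RPM in vector libraries and 10700 to 10800 in HOXB13 libraries. At day 21 it was higher in HOXB13, at 15910 to 17040 against 17560 to 18900 RPM. Of the 6, 4 were higher in HOXB13 at day 1 with an adjusted p under 0.05, whereas Thy1 and Fn1 were called lower. Fn1, the largest part of the vector sum at day 1, had means of 10155 RPM in vector and 4955 in HOXB13. Thy1 was called lower in HOXB13 at both days, with means of 566 RPM in vector against 108 in HOXB13 at day 1 and 146 against 24.0 at day 21, whereas Pdgfra, Pdgfrb, Vim and Twist2 were called higher at day 21. Among vector libraries of day 1, replicate 2 stood apart, with a chi-square per degree of freedom of 4.49 and 5.82 against the others and 1.36 between those. Without it the collagen genes called were 2 higher and 8 lower at day 1, and by day in vector 6 and 3. In HOXB13 at day 1 replicate 2 also stood apart, at 3.97 and 2.54 against the others and 1.71 between those. Without that HOXB13 library 1 collagen gene was called higher and 9 lower at day 1, and by day in HOXB13 9 and 1. Markers of other cell types moved with virus and day as well. The summed level of 8 mesothelial markers was 1224 to 1270 RPM in vector libraries against 206 to 219.7 in HOXB13 libraries at day 1, and 3629 to 3727 against 78.4 to 93.2 at day 21. That of 5 smooth muscle markers was 12890 to 13090 and 4229 to 4481 at day 1. At day 21 it was 1147 to 1189 and 416 to 454. Acta2 and Tagln were called lower in HOXB13 at both days, and Cnn1 was called by virus at neither. Des was called higher in HOXB13 at day 21, with means of 10.6 RPM in vector and 27.7 in HOXB13. By day in HOXB13 Des was called higher and 4 were called lower. Of 6 osteoblast markers only 2, Alpl and Runx2, were tested. Sp7, Bglap, Ibsp and Dmp1 reached at most 0.468 RPM in any library. Alpl was called lower in HOXB13 at both days and higher by day in both cultures. Its mean RPM was 4.43 (vector) against 0.430 (HOXB13) at day 1, then 232 against 13.4 at day 21. Runx2 was called only by day in vector, as lower. Whether the cells of day 21 were osteoblasts was not tested. The summed levels of 6 chondrocyte markers stayed between 8.08 and 39.0 RPM. Those of 5 macrophage markers stayed between 2.40 and 8.25 RPM, with none called by virus and Csf1r called higher by day in both cultures. In bulk RNA, fewer cells of a type and less RNA per cell cannot be told apart, and the part of these cell types in the collagen results was not tested.

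Collagens are trimers of chains wound into a triple helix. Fibrillar collagens build the cross-banded fibrils of bone, tendon and skin, network collagens build sheets such as the basement membrane, FACITs sit on fibril surfaces, and type VI forms beaded filaments close to cells. Fibroblasts and osteoblasts are main makers of type I collagen, the chief protein of bone matrix.

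Some chains of type IV collagen lie head to head in pairs that face each other across a short stretch of DNA, and in HOXB13 cells at day 21 one such pair was higher and another lower than in vector. Promoter windows, from 250 bases before to 50 bases after a start, were taken from RefSeq (GRCm38.p6), which had 38 windows for 35 of the 44 genes. Both pairs are shown because the genes of each pair face each other and had the same direction by virus at day 21. The windows of Col4a1 (chr8:11312777-11313076, minus strand) and Col4a2 (chr8:11312555-11312854, plus strand) overlap each other, since the first bases of the genes are 21 bases apart. Col4a6 (chrX:141474027-141474326, minus strand) and Col4a5 (chrX:141475169-141475468, plus strand) start 1309 bases apart on X, by GENCODE M21. Capitals mark motifs on either strand: the CCAAT box is CCAAT. The other marked motif, the GC box, consists of the letters GGGCGG.
Col4a1: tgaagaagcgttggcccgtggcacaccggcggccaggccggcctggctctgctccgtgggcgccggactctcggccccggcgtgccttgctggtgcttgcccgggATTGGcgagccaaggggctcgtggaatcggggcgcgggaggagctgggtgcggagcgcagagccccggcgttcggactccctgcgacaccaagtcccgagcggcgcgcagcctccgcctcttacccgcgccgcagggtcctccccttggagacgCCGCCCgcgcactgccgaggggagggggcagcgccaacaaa
Col4a2: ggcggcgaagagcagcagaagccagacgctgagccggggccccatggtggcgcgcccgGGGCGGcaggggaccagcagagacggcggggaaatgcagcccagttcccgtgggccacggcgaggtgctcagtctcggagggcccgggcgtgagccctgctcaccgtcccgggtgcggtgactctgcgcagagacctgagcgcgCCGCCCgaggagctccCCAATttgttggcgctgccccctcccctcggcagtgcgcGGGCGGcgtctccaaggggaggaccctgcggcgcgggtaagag
Col4a6: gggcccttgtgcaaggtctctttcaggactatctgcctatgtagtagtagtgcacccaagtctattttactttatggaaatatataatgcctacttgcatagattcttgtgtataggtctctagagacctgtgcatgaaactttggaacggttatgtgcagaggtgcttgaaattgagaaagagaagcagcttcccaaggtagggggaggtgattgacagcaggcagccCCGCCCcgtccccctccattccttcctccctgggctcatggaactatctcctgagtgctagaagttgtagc
Col4a5: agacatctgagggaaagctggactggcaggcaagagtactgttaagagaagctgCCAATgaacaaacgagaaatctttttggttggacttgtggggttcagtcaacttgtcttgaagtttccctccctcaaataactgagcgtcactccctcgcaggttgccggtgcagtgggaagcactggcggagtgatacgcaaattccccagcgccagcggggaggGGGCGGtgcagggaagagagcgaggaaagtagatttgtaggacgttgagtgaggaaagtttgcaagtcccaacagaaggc
The Col4a1 and Col4a2 windows had 74 and 73.7% G or C, against 48.3 and 52.7% in Col4a6 and Col4a5. The CCAAT box was present in 3 of the 4 windows and not in that of Col4a6, and the GC box was present in all 4. Over all 38 collagen windows the CCAAT box was found in 13 (34.2%) and the GC box in 23 (60.5%), and over all 32851 windows in RefSeq in 37.4 and 35.7%. The letters CCAATAAA, bound by HOXB13 in human data, were found on neither strand of any collagen window and in 1.12% of all windows. A related form that it also binds, TCGTAAA, was in no collagen window and in 0.597% of all windows. At shares this low, finding none in 38 windows cannot show whether HOXB13 binds near collagen genes. Col1a1, Col5a2, Col12a1 and Col14a1 are among the genes without a window.

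Of the 44 genes, 31 had at least 1 RPM in at least 3 libraries and were tested. The 13 others were Col2a1, Col4a3, Col9a1, Col9a2, Col9a3, Col19a1, Col22a1, Col6a4, Col6a5, Col6a6, Col13a1, Col17a1 and Col25a1. Their highest library lay between 0.15 and 1.48 RPM, with 3 to 112 reads in all 12 libraries together. So the chains of cartilage types II and IX and most transmembrane collagens were near or under the limit of detection in all 4 groups. Of the tested genes 2, Col10a1 and Col26a1, passed through libraries of 1 group, and the 31 are not a sample of all collagens. A group mean of at least 5 RPM was reached by 25 genes.

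**Figure D1:**
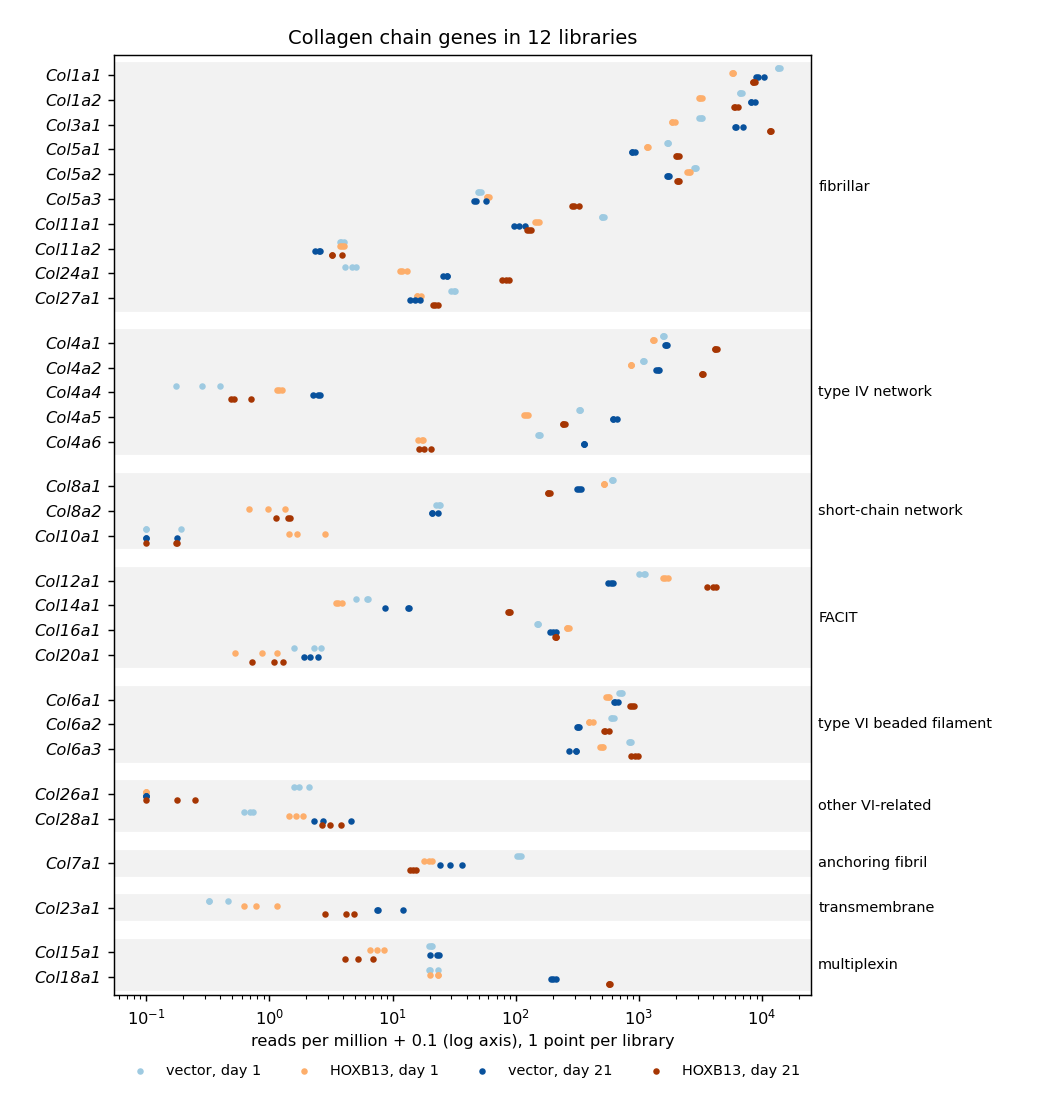
Level of the 31 tested collagen genes in each library, in RPM plus 0.1 on a log axis, with 1 point per library, 1 colour per group and genes ordered by class. The highest levels are those of type I and III chains. The points of a group lie close together for abundant genes and spread for those under about 5 RPM.

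Collagen genes took a smaller share of gene reads in HOXB13 than in vector at day 1 and a larger one at day 21. The share was 3.62, 3.52 and 3.53% in the vector libraries at day 1 and 2.43, 2.35 and 2.44% in the HOXB13 libraries, so that HOXB13 lay lower with no overlap. At day 21 it was 3.28, 3.33 and 3.59% in vector cells and 4.36, 4.34 and 4.48% in HOXB13 cells, the reverse order, again with no overlap. From day 1 to day 21 the share in HOXB13 went from 2.41% ± 0.047 to 4.39% ± 0.0724 (SD, n = 3). In vector it was 3.55% ± 0.0555 and then 3.4% ± 0.165, with overlapping libraries and an exact two-sided permutation p of 0.3. The exact permutation p of the 3 other comparisons was 0.1, the smallest that 3 libraries against 3 can give.

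The classes of collagen took different shares of collagen reads in the 2 cultures. Fibrillar chains took 79.6% ± 0.227 of collagen reads in vector at day 1 and 80.0% ± 0.553 at day 21, and 70.2% ± 0.12 and 67.3% ± 0.42 in HOXB13. FACITs took 9.06% ± 0.326 and 9.16% ± 0.52 in HOXB13 at days 1 and 21, against 3.43% ± 0.125 and 2.39% ± 0.0397 in vector. The type IV share was 8.75% ± 0.0367 in vector cells and 11.1% ± 0.123 in HOXB13 cells at day 1, and 12.03% ± 0.318 and 16.8% ± 0.21 at day 21. Type VI filament chains took 6.04% ± 0.135 and 6.97% ± 0.179 at day 1, and 3.74% ± 0.136 and 5.09% ± 0.116 at day 21. At both days HOXB13 cells thus had a smaller fibrillar and a larger FACIT, type IV and type VI share of their collagen reads. These shares are of reads and favour long messages, and no test was run on them.

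**Figure D2:**
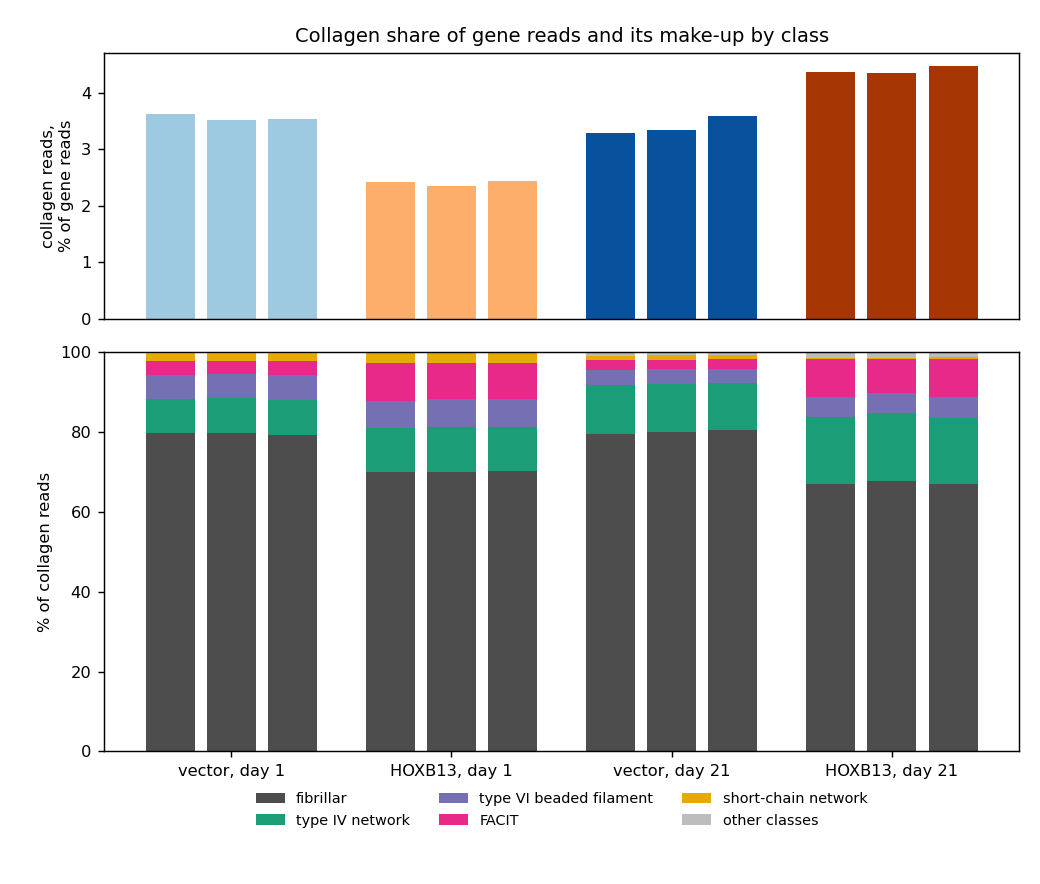
Collagen reads as percent of all gene reads (upper panel) and the share of each class in collagen reads (lower panel, percent), with 1 bar per library in the 4 groups. The HOXB13 bars are the lowest at day 1 and the highest at day 21, and the dark fibrillar part is smaller in all 6 HOXB13 libraries than in the 6 vector libraries.

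More of the tested collagen genes were lower than higher in HOXB13 at day 1, and more were higher than lower at day 21. Genes were tested with limma on log2(RPM + 1), with Benjamini-Hochberg adjustment over all 13516 genes, and a gene was called when its adjusted p was under 0.05 and its change at least 2-fold; changes on this scale are smaller than the ratio of levels for genes of low level. At day 1, 8 of the 31 tested collagen genes were higher and 21 lower in HOXB13 by the adjusted p alone, beside 72.5% of all genes that passed it in either direction, 33.9% higher and 38.5% lower. Called at day 1 were 2 higher (Col10a1 and Col24a1) and 9 lower, 35.5% of the tested members, where 13.3% of all genes were called, 7.2% higher and 6.06% lower. After quantile normalization these calls were 3 higher and 7 lower, and the higher calls were 0 with a pseudocount of 4, 4 with one of 0.25 and 5 with edgeR or DESeq2. Without any 1 of the HOXB13 libraries of day 1 the only higher call was Col24a1, since Col10a1 then had under 3 libraries at 1 RPM. The 9 lower genes were Col8a2, Col4a6, Col7a1, Col11a1, Col26a1, Col4a5, Col15a1, Col1a1 and Col1a2. The median log2 change of the tested members was -0.56, beside -0.03 over all genes tested.

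At day 21 the balance was the other way. There 16 members were higher and 11 lower by the adjusted p (72.4% of all genes passed, 37.3% higher and 35.1% lower), and 9 were called higher and 6 lower, 48.4% of the tested members beside 16.6% of all genes, 8.15% higher and 8.4% lower. The 9 called higher were Col14a1, Col12a1, Col5a3, Col6a3, Col24a1, Col18a1, Col4a1, Col4a2 and Col5a1, and the 6 called lower were Col4a6, Col8a2, Col15a1, Col4a5, Col4a4 and Col23a1. The median log2 change was 0.26 (all genes 0.01). After quantile normalization the calls were 7 higher and 6 lower and the median was 0.10, and over all alternatives the median ran up to 0.46.

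Between the days 13 members were higher and 13 lower at day 21 in vector by the adjusted p, where 83.6% of all genes passed (41.7% higher and 41.9% lower), a share near the background. In HOXB13 these were 18 higher and 8 lower, beside 80.1% of all genes (39.5% higher and 40.6% lower). Of these, 7 members were called higher and 4 lower at day 21 in vector, 35.5% beside 28.1% of all genes (16.1% higher and 12% lower), a share near the background. In HOXB13 10 were called higher and 2 lower, 38.7% beside 23.6% of all genes (13.2% higher and 10.5% lower). By the interaction 19 members passed with a more positive and 8 with a more negative day change in HOXB13, beside 68.2% of all genes (36.6% and 31.7%). The interaction was called for 19 members, 61.3% of those tested beside 17.4% of all genes. In 15 of the 19 the change from day 1 to day 21 was larger, or less negative, in HOXB13 (7.87% of all genes) and in 4 smaller (9.53%). After quantile normalization the interaction called 10 and 5, and with a pseudocount of 4 it called 14 and 1. The median interaction was 0.79, beside 0.03 over all genes. Without the TMM factors of the deposited values the median of all genes moved to 0.15 in the day 1 comparison and to -0.23 in the interaction, and those of the members to -0.34 and 0.51.

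**Figure D3:**
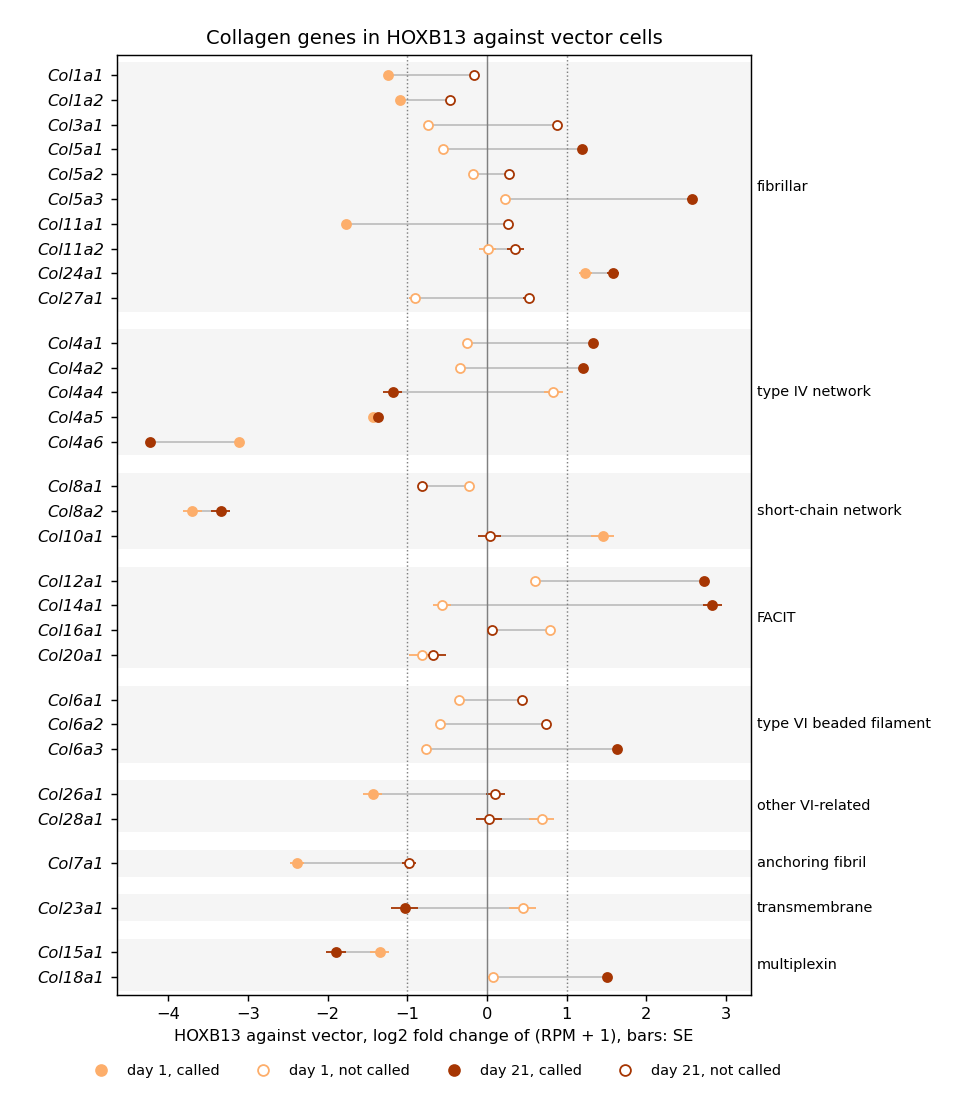
Log2 fold change of HOXB13 against vector on log2(RPM + 1) for the 31 tested collagen genes at day 1 (light) and day 21 (dark), with standard errors; filled points were called, and dotted lines mark 2-fold. Many light points lie to the left of 0 and their dark partners to the right, as for Col5a1 (-0.56 and 1.20) and Col6a3 (-0.76 and 1.63), while Col4a5, Col4a6 and Col8a2 lie on the left at both days.

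Type I collagen, the heterotrimer of Col1a1 and Col1a2 chains and the main fibril protein of bone, was lower in HOXB13 cells at both days, most at day 1. Col1a1 (ENSMUSG00000001506, chromosome 11, 94936224 to 94953042, plus strand, GRCm38) stood at 13832, 13500.2 and 13480.5 RPM in the 3 vector libraries of day 1 and at 5807, 5667 and 5809 in those of HOXB13. By day 21 the levels were 8991, 9328 and 10305 in vector cells and 8421, 8398 and 8772 in HOXB13 cells. The groups did not overlap at either day, but the gap was wide at day 1 (2.36-fold) and narrow at day 21 (1.12-fold). The log2 change by virus was -1.24 ± 0.036 on day 1 (SE; adjusted p = 3.57e-19) and -0.16 ± 0.036 on day 21 (adjusted p = 3.64e-04); after quantile normalization the first was -0.25 and no longer a call. From day 1 to day 21 the gene fell in vector (-0.51 ± 0.036) and rose in HOXB13 (0.57 ± 0.036), but after quantile normalization the change in HOXB13 was -0.58 and the interaction -0.0247 in place of 1.08.

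Col1a2 (ENSMUSG00000029661, chromosome 6, 4504814 to 4541544, plus strand) had 6797, 6613 and 6628 RPM in vector cells and 3105, 3094 and 3224 in HOXB13 cells at day 1. After 21 days vector cells were at 8185, 8172 and 8755 and HOXB13 cells at 5929, 6010 and 6322. Every HOXB13 library was below every vector library of the same day. The change by virus was -1.09 ± 0.03 at day 1 (adjusted p = 1.94e-19; -0.88 without the TMM factors and -0.50 after quantile normalization, both under 2-fold) and -0.46 ± 0.03 at day 21 (adjusted p = 2.33e-12). Unlike Col1a1, it was higher at day 21 than at day 1 in vector too, by 0.32 ± 0.03, and by 0.95 ± 0.03 in HOXB13.

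Col3a1 (ENSMUSG00000026043, chromosome 1, 45311538 to 45349706, plus strand), the single chain of type III collagen, which forms fibrils with type I in skin and vessels, had a level in HOXB13 at day 21 that was 6.16 times that at day 1. Its levels at day 1 were 3257, 3059 and 3193 RPM in vector cells and 1867, 1862 and 1944 in HOXB13 cells. At day 21 they were 6007, 6129.7 and 6952 in vector cells and 11634, 11476 and 11841 in HOXB13 cells. HOXB13 was thus lower at day 1 and higher at day 21, with no overlap at either. Between the cultures the log2 difference went from -0.75 ± 0.039 (adjusted p = 2.67e-14) to 0.88 ± 0.039 (adjusted p = 9.41e-16). The change by day was 1.00 ± 0.039 in vector, at the 2-fold limit and 0.94 without vector day 21 replicate 3, 0.98 without vector day 1 replicate 2 and 0.73 after quantile normalization. In HOXB13 it was 2.62 ± 0.039 (adjusted p = 3.02e-25).

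Per length of the principal messenger, Col1a1 led in 3 of the 4 groups, with 2294 ± 33.3 RPM per kb in vector cells and 971 ± 13.8 in HOXB13 cells at day 1, and 1609 ± 115 in vector at day 21. In vector at day 21 Col1a2, at 1565 ± 62.3, did not differ from it beyond the spread. In HOXB13 at day 21 the order was Col3a1 at 2094 ± 32.9, Col1a1 at 1439 ± 35.3, Col1a2 at 1138 ± 38.7, Col4a1 at 632 ± 11.8 and Col4a2 at 505 ± 4.51, with no overlap between neighbours. This order depends on the length: per kb of all annotated exons, a length added after the data were seen, Col1a1 led in all 4 groups, and in HOXB13 at day 21 it stood at 1299.8 ± 31.9 RPM per kb, ahead of Col3a1 at 1187 ± 18.6, while Col4a1 at 560.2 ± 10.5 passed Col1a2 at 489.9 ± 16.7.

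Type V collagen, a minor partner of type I fibrils that governs their start and width, changed unevenly among its 3 chains. Col5a1 (ENSMUSG00000026837, chromosome 2, 27886425 to 28039514, plus strand) was at 1720, 1690.4 and 1730.5 RPM in vector cells and 1162, 1152 and 1183 in HOXB13 cells at day 1. In the day 21 libraries it lay at 872, 877 and 928 with vector and at 2048, 1999.7 and 2096 with HOXB13, so the order of the groups turned over. The change by virus was -0.56 ± 0.026 and then 1.20 ± 0.026 (adjusted p = 4.62e-15 and 1.14e-21; the second was 0.79 after quantile normalization). Col5a2 (ENSMUSG00000026042, chromosome 1, 45374321 to 45503282, minus strand), the usual partner of the Col5a1 chain, had means of 2849 ± 41.8 and 2529 ± 67.4 RPM at day 1 and 1714 ± 33.5 and 2071 ± 29.8 at day 21 (vector, then HOXB13; SD, n = 3). It fell by day in both (-0.73 ± 0.025 in vector and -0.29 ± 0.025 in HOXB13). Its direction by virus depended on the scaling: -0.17 at day 1 became 0.0411 without the TMM factors and 0.27 after quantile normalization, and 0.27 at day 21 became -0.00511 after quantile normalization.

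Col5a3 (ENSMUSG00000004098, chromosome 9, 20770050 to 20815067, minus strand), the rarest of these chains, was at 52.5, 49.1 and 49.9 RPM in vector cells and 58.6, 60.6 and 58.8 in HOXB13 cells at day 1. Its day 21 values were 57.5, 47.8 and 45.6 for vector and 299, 324 and 287 for HOXB13. Only the HOXB13 libraries of day 21 stood apart by over 2-fold, 6.03 times the vector level of that day (2.57 ± 0.059, adjusted p = 2.69e-21). In vector the day change did not pass (-0.01 ± 0.059, adjusted p = 0.838).

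Type XI chains are close relatives of type V that line the fibrils of cartilage and occur in other young tissues. Col11a1 (ENSMUSG00000027966, chromosome 3, 114030540 to 114220718, plus strand) was at 523, 505 and 499 RPM in vector at day 1, well above all other groups. It was at 154, 143 and 148 in HOXB13 at day 1, and at day 21 at 96.1, 106 and 118 in vector cells and 124, 132 and 127 in HOXB13 cells. The vector libraries fell from day 1 to day 21, with a log2 change of -2.25 ± 0.048 (adjusted p = 3.62e-22), and those of HOXB13 with one of -0.21 ± 0.048 (adjusted p = 3.21e-04). Between the cultures the log2 difference was -1.77 ± 0.048 at day 1 and 0.26 ± 0.048 at day 21. Col11a2 was low everywhere, with group means of 2.39 to 3.81 RPM, and was called in no comparison. Col2a1 (ENSMUSG00000022483, chromosome 15, 97975602 to 98004695, minus strand), the main collagen of cartilage, had 18, 2, 5 and 5 reads over vector and HOXB13 at day 1 and vector and HOXB13 at day 21, at most 0.594 RPM in any library.

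Col24a1 and Col27a1 encode the 2 remaining fibrillar collagens, known from developing bone and from cartilage. Col24a1 (ENSMUSG00000028197, chromosome 3, 145292472 to 145552011, plus strand) was at 4.63, 4.01 and 4.94 RPM in vector cells and 12.9, 11.7 and 11.4 in HOXB13 cells at day 1. It was at 27.6, 25.6 and 27.7 in vector cells and 77.3, 82.5 and 88.9 in HOXB13 cells at day 21. Each step, by virus and by day, led to higher values with no overlap. The log2 change by virus was 1.24 ± 0.078 at day 1 and 1.58 ± 0.078 at day 21, and by day 2.34 ± 0.078 in vector cells and 2.69 ± 0.078 in HOXB13 cells (adjusted p from 1.67e-19 to 1.20e-12). Col27a1 (ENSMUSG00000045672, chromosome 4, 63214004 to 63334991, plus strand) had 29.8, 31.8 and 31.4 RPM in vector cells and 15.7, 15.6 and 16.9 in HOXB13 cells at day 1. At day 21 it had 15.2, 13.8 and 16.5 in vector cells and 23.4, 21.9 and 21.2 in HOXB13 cells. It was lower in HOXB13 at day 1 (-0.91 ± 0.072) and higher at day 21 (0.52 ± 0.072), neither by 2-fold, with an interaction of 1.43 ± 0.10 (adjusted p = 1.71e-11).

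In the type IV network the 2 head-to-head pairs differed by virus in opposite ways at day 21. Col4a1 and Col4a2 encode the chains of the basement membrane trimer found in nearly all tissues. Col4a1 (ENSMUSG00000031502, chromosome 8, 11198423 to 11312826, minus strand) was at 1588, 1556 and 1566 RPM in vector cells and 1305, 1311 and 1329 in HOXB13 cells at day 1. By day 21 the levels were 1647, 1631 and 1695 in vector cells and 4123, 4152 and 4270.4 in HOXB13 cells. Col4a2 (ENSMUSG00000031503, chromosome 8, 11312805 to 11449287, plus strand) was at 1108, 1069.9 and 1088 in vector cells and 869, 864 and 861 in HOXB13 cells at day 1 and at 1367, 1425 and 1461 in vector cells and 3284, 3228 and 3268 in HOXB13 cells at day 21. For both genes the HOXB13 libraries of day 21 were far above the other 9. The change by virus at day 21 was 1.33 ± 0.024 for Col4a1 and 1.20 ± 0.025 for Col4a2 (adjusted p = 2.15e-23 and 4.25e-22; the second was 0.85 after quantile normalization). At day 1 both were lower in HOXB13, at -0.33 ± 0.025 for Col4a2 and -0.26 ± 0.024 for Col4a1, but for Col4a1 the change was 0.18 after quantile normalization. The exons of these genes overlap by 22 bases on opposite strands, a small part of either, and the libraries were made strand-specific.

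Col4a5 and Col4a6, the pair on X, encode chains that form a separate basement membrane trimer around smooth muscle and under some epithelia. Col4a5 (ENSMUSG00000031274, chromosome X, 141475385 to 141689234, plus strand) was at 328, 332 and 332 RPM in vector cells and 122, 118 and 126 in HOXB13 cells at day 1. After 21 days vector cells were at 618, 621 and 661 and HOXB13 cells at 243, 241 and 252. HOXB13 was lower at both days with no overlap, with log2 changes of -1.43 ± 0.031 and -1.37 ± 0.031 (adjusted p = 1.56e-21 and 1.97e-21). Both cultures rose by day, by 0.94 ± 0.031 in vector cells and 1.00 ± 0.031 in HOXB13 cells, the latter at the 2-fold limit and 0.98 without either HOXB13 day 1 replicate 2 or HOXB13 day 21 replicate 3. The interaction did not pass (0.07 ± 0.044, adjusted p = 0.177) and was -0.22 without the TMM factors and -0.20 after quantile normalization, both passing.

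Col4a6 (ENSMUSG00000031273, chromosome X, 141165403 to 141474076, minus strand) was at 156, 155 and 152 RPM in vector cells and 17.7, 17.3 and 15.9 in HOXB13 cells at day 1. It was at 356, 357 and 359.7 in vector cells and 16.4, 17.8 and 20.3 in HOXB13 cells at day 21. The vector level was 9.11 times that of HOXB13 at day 1 and 19.7 times at day 21 (-3.11 ± 0.054 and -4.23 ± 0.054; adjusted p = 3.09e-23 and 4.65e-26). It rose by day in vector (1.21 ± 0.054), and in HOXB13 its change of 0.09 ± 0.054 did not pass and was -0.16, and passed, without the TMM factors. Mesothelial markers were lower in HOXB13 too: 7 of 8 were called lower at day 1 and 8 of 8 at day 21, with none at 0 in all libraries and the summed levels given above, while the eighth, Krt19, was higher at day 1, with means of 82.1 RPM in vector and 132 in HOXB13. By day in vector 5 of 8 were called higher and 2, Krt8 and Krt18, lower. By day in HOXB13 4 were called lower and none higher, where Col4a5 rose. Of 6 epithelial markers 3 were measured and all 3 were called lower in HOXB13 at both days. The part of these cells in the Col4a5 and Col4a6 results was not tested. Of 454 tested genes on X, 7.05% were called lower in HOXB13 at day 1 and 12.3% at day 21, beside 6.03 and 8.26% of the other genes.

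Col4a3 and Col4a4, also a head-to-head pair (first bases 72 bases apart on chromosome 1), encode chains of the kidney filter membrane and were near the limit. Col4a3 was not tested, and Col4a4 had group means of 0.185, 1.11, 2.34 and 0.471 RPM in vector and HOXB13 at day 1 and vector and HOXB13 at day 21. It was called lower in HOXB13 at day 21 (-1.18 ± 0.12, adjusted p = 5.26e-09) and higher by day in vector (1.50 ± 0.12), and neither change reached 2-fold with a pseudocount of 4.

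**Figure D4:**
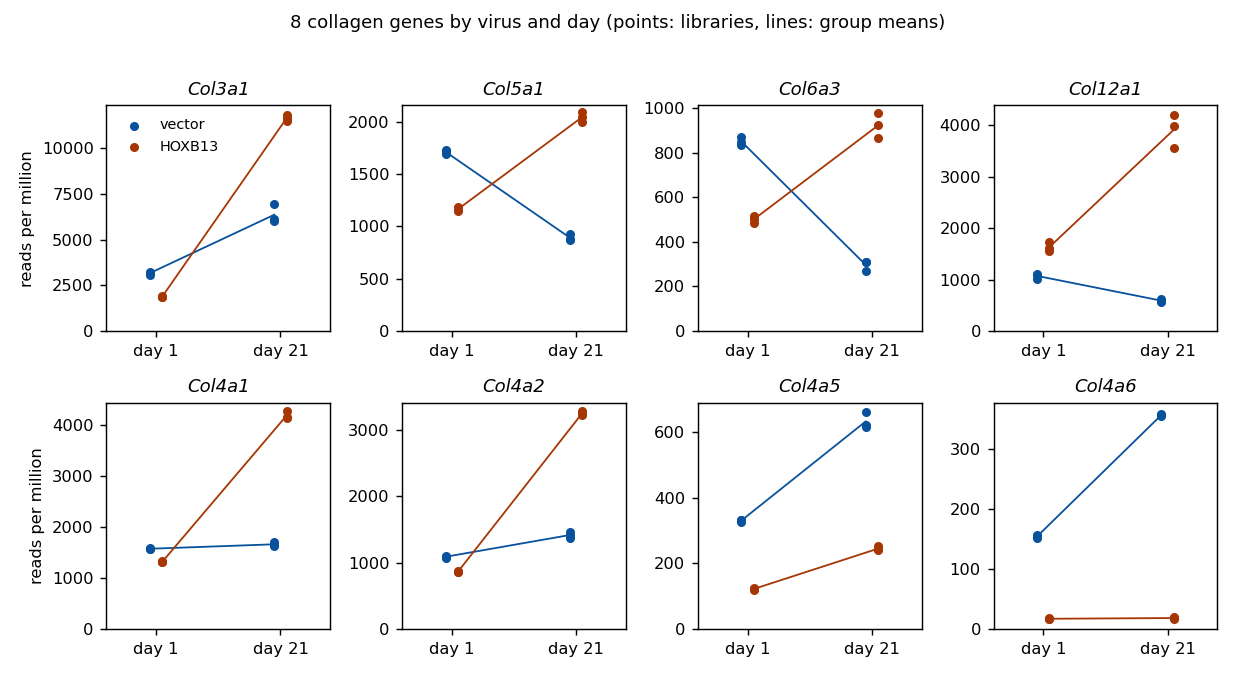
RPM of 8 collagen genes at day 1 and day 21 in vector (blue) and HOXB13 (brown) cells, with 1 point per library, lines through group means and axes from 0. The lines cross for Col3a1, Col5a1, Col6a3, Col4a1 and Col4a2; for Col12a1, Col4a5 and Col4a6 the same culture is higher at both days.

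Among the short-chain networks, Col8a1 and Col8a2 encode type VIII collagen, known from vessel walls and the back of the cornea. Col8a2 (ENSMUSG00000056174, chromosome 4, 126286793 to 126314330, plus strand) was at 24.2, 22.5 and 23.6 RPM in vector cells and 0.873, 0.584 and 1.23 in HOXB13 cells at day 1. It was at 20.9, 20.8 and 23.5 in vector cells and 1.37, 1.33 and 1.04 in HOXB13 cells at day 21. The HOXB13 libraries were thus near the limit of detection at both days while vector did not change by a passing amount between them (-0.10 ± 0.12, adjusted p = 0.42). Between the cultures the log2 difference was -3.70 ± 0.12 and -3.34 ± 0.12 (adjusted p = 2.69e-18 and 1.31e-17). The mesothelial markers had the same direction by virus, and their part was not tested. By day in vector 5 of these 8 markers were called higher and 2 lower, where Col8a2 did not pass. Col8a1 (ENSMUSG00000068196, chromosome 16, 57624258 to 57754737, minus strand) did not follow Col8a2: it had 614, 602 and 603 RPM in vector cells and 517, 519 and 519 in HOXB13 cells at day 1. In the day 21 libraries it lay at 316, 325 and 335 with vector and at 181, 189 and 181 with HOXB13. It fell by day in both (-0.90 ± 0.026 in vector and -1.49 ± 0.026 in HOXB13), and was lower in HOXB13 at day 21, at -0.82 ± 0.026 (adjusted p = 1.84e-18) and at day 1, at -0.23 ± 0.026, which was 0.0802 after quantile normalization.

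Col10a1, the collagen of hypertrophic cartilage, had 91 reads over the HOXB13 libraries of day 1 and 1, 1 and 2 over vector at day 1, vector at day 21 and HOXB13 at day 21. Its level in HOXB13 at day 1 was 1.57, 2.72 and 1.35 RPM. The ratio to vector at day 1 was 70.4, with an exact 95% interval of 12.3 to 2812 that covers counting error only. Of the 6 chondrocyte markers 4 were tested, and none was called higher in HOXB13 at day 1.

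FACITs bind along the surface of type I fibrils. Col12a1 (ENSMUSG00000032332, chromosome 9, 79598991 to 79718831, minus strand), which is abundant in tendon and ligament, was at 1095, 1009 and 1110.3 RPM in vector cells and 1726, 1555 and 1619 in HOXB13 cells at day 1. Its day 21 values were 562, 589 and 621 for vector and 3988, 3553 and 4199.8 for HOXB13. It was higher in HOXB13 at both days, 1.52 times at day 1 and 6.63 times at day 21 (0.61 ± 0.048 and 2.72 ± 0.048; adjusted p = 7.68e-11 and 2.38e-23). By day it fell in vector (-0.86 ± 0.048) and rose in HOXB13 (1.26 ± 0.048; 0.996 without the TMM factors and 0.48 after quantile normalization). Its interaction was 2.12 ± 0.068.

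Col14a1 (ENSMUSG00000022371, chromosome 15, 55307750 to 55520803, plus strand), a FACIT that also sits on type I fibrils, had the largest interaction of the 31 genes in the limma fit. At day 1 it was at 6.18, 4.97 and 6.07 RPM in vector cells and 3.37, 3.76 and 3.5 in HOXB13 cells. At day 21 it was at 13.5, 8.55 and 13.2 in vector cells and 86.6, 89.6 and 88.4 in HOXB13 cells. The HOXB13 libraries were the lowest at day 1 and by far the highest at day 21. The change by virus was -0.56 ± 0.12 and then 2.83 ± 0.12 (adjusted p = 1.93e-04 and 3.57e-16), and HOXB13 rose by day by 4.29 ± 0.12. Vector rose by 0.90 ± 0.12, or 1.10 without vector day 21 replicate 2, the lowest library of its group. Col16a1 passed as higher in HOXB13 at day 1 without reaching 2-fold, with means of 151 ± 1.38 and 263 ± 5.32 RPM (SD, n = 3; log2 change 0.80 ± 0.032). At day 21 its groups overlapped, and the change of 0.07 ± 0.032 did not pass (adjusted p = 0.0593). Col20a1 stayed at group means of 0.752 to 2.09 RPM and was not called on log2(RPM + 1); edgeR called it lower in HOXB13 at both days (-1.39 and -1.11).

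The 3 expressed chains of type VI collagen, which assemble as 1 trimer into filaments around cells, crossed over together. Col6a3 (ENSMUSG00000048126, chromosome 1, 90765923 to 90843971, minus strand) was at 848, 832 and 869 RPM in vector cells and 486, 501 and 514 in HOXB13 cells at day 1. By day 21 the levels were 311, 269 and 309.6 in vector cells and 924, 865 and 975 in HOXB13 cells. Vector libraries were higher at day 1 and lower at day 21, with no overlap. Between the cultures the log2 difference was -0.76 ± 0.044 and 1.63 ± 0.044 (adjusted p = 1.88e-13 and 5.55e-20). Col6a2 (ENSMUSG00000020241, chromosome 10, 76595762 to 76623630, minus strand) was at 608, 595 and 624 in vector cells and 396, 395 and 422 in HOXB13 cells (RPM) at day 1 and at 317, 323 and 319.7 in vector cells and 529, 518 and 568 in HOXB13 cells at day 21. It moved like Col6a3 but less, by -0.59 ± 0.032 and 0.75 ± 0.032. Col6a1, with means of 709 ± 21.3 and 557 ± 13.8 RPM at day 1 and 646 ± 24.4 and 879 ± 28.6 at day 21, moved least, by -0.35 ± 0.031 and 0.44 ± 0.031. The interaction was 2.40 ± 0.062, 1.34 ± 0.045 and 0.79 ± 0.043 for Col6a3, Col6a2 and Col6a1. Between the days Col6a3 fell in vector (-1.52 ± 0.044), as did Col6a2 (-0.93 ± 0.032).

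Col7a1 (ENSMUSG00000025650, chromosome 9, 108953586 to 108984875, plus strand), the chain of the fibrils that anchor epithelia to the dermis, was at 106, 111 and 103 RPM in vector at day 1 and 20.8, 19.8 and 18.1 in HOXB13. After 21 days vector cells were at 36.4, 29.1 and 24.3 and HOXB13 cells at 13.8, 15.3 and 14.5. The vector libraries of day 1 stood above all others. The change by virus was -2.39 ± 0.09 on day 1 (adjusted p = 6.75e-17) and -0.98 ± 0.09 on day 21, just under 2-fold and -1.11 without vector day 21 replicate 3 or -1.01 without HOXB13 day 21 replicate 2. In vector it fell by day (-1.82 ± 0.09).

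The 2 multiplexins, basement membrane collagens with sugar side chains, differed by virus in opposite directions at day 21. Col18a1 (ENSMUSG00000001435, chromosome 10, 77052178 to 77166548, minus strand), whose end piece is endostatin, was at 23.2, 19.6 and 20.1 RPM in vector cells and 19.96, 23.1 and 23.1 in HOXB13 cells at day 1. In the day 21 libraries it lay at 213, 192 and 200 with vector and at 574, 569 and 581 with HOXB13. The groups overlapped at day 1 and were far apart at day 21. It rose by day by 3.21 ± 0.055 in vector cells and 4.64 ± 0.055 in HOXB13 cells (adjusted p = 7.18e-24 and 5.69e-27), and at day 21 HOXB13 was higher by 1.51 ± 0.055. At day 1 the change by virus of 0.07 ± 0.055 did not pass; it was 0.28 and passed without the TMM factors. Col15a1 (ENSMUSG00000028339, chromosome 4, 47208161 to 47313167, plus strand) was at 20.7, 20.5 and 19.5 RPM in vector cells and 6.46, 7.33 and 8.36 in HOXB13 cells at day 1. Its day 21 values were 23.9, 19.9 and 23.0 for vector and 6.83, 4.05 and 5.15 for HOXB13. HOXB13 was lower at both days with no overlap, with log2 changes of -1.35 ± 0.12 and -1.89 ± 0.12 (adjusted p = 7.72e-10 and 1.36e-12). The mesothelial markers had the same direction by virus, and their part was not tested. By day in vector 5 of these 8 markers were called higher and 2 lower. Col15a1 did not pass there, at means of 20.3 and 22.3 RPM.

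Col23a1 (ENSMUSG00000063564, chromosome 11, 51289920 to 51583918, plus strand), the 1 transmembrane collagen above the filter, was at 0.363, 0.223 and 0.225 RPM in vector cells and 1.047, 0.519 and 0.676 in HOXB13 cells at day 1. At day 21 it was at 12.1, 7.57 and 7.4 in vector cells and 4.78, 4.13 and 2.71 in HOXB13 cells. Both cultures were higher at day 21, by 2.95 ± 0.17 in vector cells and 1.47 ± 0.17 in HOXB13 cells. At day 21 HOXB13 was lower with no overlap, by -1.03 ± 0.17. Its 2-fold call rested on single libraries. The change was -0.82 without vector day 21 replicate 1 and -0.85 without HOXB13 day 21 replicate 3, both under 2-fold but passing. Col26a1 had 64 reads in the day 1 vector libraries, none in HOXB13 at day 1 or vector at day 21, and 3 in HOXB13 at day 21. Against a floor of 3 reads over a group its day 1 level in vector was at least 27.9-fold higher than in HOXB13, and at least 21.9-fold higher than in vector at day 21. Col28a1 lay between group means of 0.585 and 3.11 RPM and was called higher by day in vector, by 1.34 ± 0.16.

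The turn from lower to higher in HOXB13 against vector cells was counted over the 31 tested genes, from libraries that the 2 days do not share. Of them 11 were lower in HOXB13 at day 1 and higher at day 21, each with an adjusted p under 0.05, beside 9.5% of all genes. They were Col3a1, Col5a1, Col5a2, Col11a1, Col27a1, Col4a1, Col4a2, Col14a1, Col6a1, Col6a2 and Col6a3, of which Col5a2 and Col4a1 changed sign at day 1 with the scaling, as given above, and Col5a2 also at day 21. The opposite turn was made by 2, Col4a4 and Col23a1 (6.51% of all genes). Lower at both days were 9, Col1a1, Col1a2, Col4a5, Col4a6, Col8a1, Col8a2, Col20a1, Col7a1 and Col15a1 (20.3%), of which Col8a1 was higher at day 1 after quantile normalization, and higher at both were Col5a3, Col24a1 and Col12a1 (18.7%). By day, 7 genes fell in vector and rose in HOXB13 (5.36% of all genes), namely Col1a1, Col5a1, Col27a1, Col12a1, Col6a1, Col6a2 and Col6a3; the rise of Col1a1 was a fall after quantile normalization. The reverse, a rise in vector and a fall in HOXB13, was seen for 2, Col4a4 and Col16a1 (4.84%). Genes that fell by day in both were 4, Col5a2, Col11a1, Col8a1 and Col7a1 (30.3%). The 10 that rose by day in both (29.2%) included Col1a2, Col3a1, Col24a1, Col4a1, Col4a2 and Col18a1.

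Ratios between chains, most of them partners in a trimer, differed among the groups by more than the spread between libraries. Ratios were taken per length of the principal messenger within each library, so that the scaling of libraries drops out. Col1a1 to Col1a2, which join 2 to 1 in the type I protein, stood at 1.84 ± 0.0037 in vector cells and 1.65 ± 0.0311 in HOXB13 cells at day 1 (SD, n = 3). At day 21 it stood at 1.03 ± 0.0355 and 1.26 ± 0.0151, lower in both cultures. The level of this ratio depends on the length used, being 3.86 in vector at day 1 with the union of all annotated exons. The order of groups cannot change with the length, which multiplies the ratio by the same factor in every library. Col4a1 to Col4a2, also 2 to 1 in the protein, ranged between 1.14 ± 0.0305 and 1.48 ± 0.0202.

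Col5a1 to Col5a2 was 0.474 ± 0.00909, 0.363 ± 0.00904 and 0.41 ± 0.0129 in vector at day 1, HOXB13 at day 1 and vector at day 21, and 0.779 ± 0.0133 in HOXB13 at day 21, where it was highest. Col6a3 to Col6a1 was 0.546 ± 0.00787 and 0.409 ± 0.00202 at day 1 in vector and HOXB13 and 0.209 ± 0.0126 and 0.477 ± 0.0132 at day 21, lowest in vector at day 21. Col6a1 to Col6a2 went from 1.12 ± 0.0148 to 1.94 ± 0.0824 in vector and from 1.33 ± 0.0266 to 1.57 ± 0.0308 in HOXB13. Col3a1 to Col1a1 went from 0.248 ± 0.00595 to 0.71 ± 0.00945 in vector and from 0.35 ± 0.00699 to 1.46 ± 0.0169 in HOXB13. With the length of all annotated exons the last value was 0.913, so which of the 2 messages was higher at day 21 depends on the length. Col11a1 to Col5a1 was 0.326 ± 0.00888 in vector at day 1 and 0.0684 ± 0.00346 in HOXB13 at day 21, the extremes. Col8a1 to Col8a2 was 22.0 ± 0.638 in vector cells and 538 ± 200.3 in HOXB13 cells at day 1, a ratio that rests on few Col8a2 reads. For these 8 ratios and 4 comparisons the groups overlapped in none of 32 cases. Ratios between other genes were not counted, and 72.4 to 83.6% of all genes passed by the adjusted p in these comparisons. The count therefore cannot be read as particular to collagen chains. The exact two-sided permutation p was 0.1 in each, raw and adjusted, the smallest that the design allows.

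**Figure D5:**
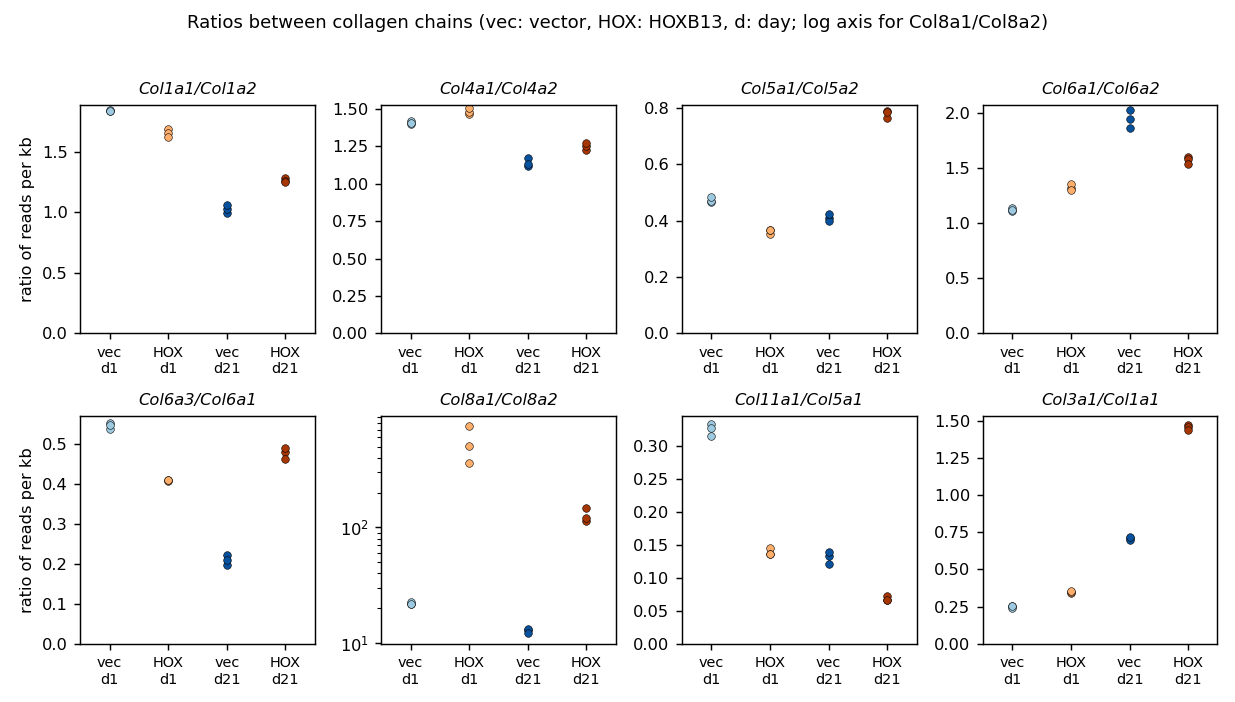
Ratio of reads per kb between 8 pairs of collagen chains, with 1 point per library in the 4 groups (vec, vector; HOX, HOXB13; d, day); axes start at 0 except the log axis of Col8a1/Col8a2. With the length of the principal messenger the ratio of Col3a1 to Col1a1 is below 1 in the first 3 groups and 1.46 in HOXB13 at day 21 (0.913 with that of all exons), and that of Col1a1 to Col1a2 falls from 1.84 to 1.03 in vector.

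Genes that make, bind or cleave collagen were counted from lists of known members. Of 30 genes for collagen synthesis and processing 28 were tested. At day 1, 6 were higher and 21 lower in HOXB13 by the adjusted p, and 8 were called lower and none higher (6.06% and 7.2% of all genes). The largest were the hydroxylases P3h2 (-2.35 ± 0.081), P4ha3 (-2.28 ± 0.12) and Plod2 (-2.26 ± 0.042), which modify prolines and lysines of new chains. At day 21, 16 were higher and 9 lower, with 5 and 3 called (8.15% and 8.4% of all genes). Pcolce2, an enhancer of propeptide removal, went from 1.33 to 73.2 RPM between vector and HOXB13 (5.01 ± 0.11), P3h2 was higher (2.01 ± 0.081) and P4ha3 lower (-1.97 ± 0.12). By day, 12 were called higher and 3 lower in HOXB13 (13.2% and 10.5% of all genes), against 5 and 4 in vector (16.1% and 12%), where the share is near the background. In HOXB13 P3h2 rose by 4.48 ± 0.081 and Adamts2, a procollagen peptidase, by 3.79 ± 0.036, while Tll1, a protease of the Bmp1 family, fell (-3.54 ± 0.11). In vector Tll1 changed by -5.25 ± 0.11, Pcolce2 by -3.97 ± 0.11 and Adamts2 by 2.24 ± 0.036. The interaction called 10 of the 28, beside 17.4% of all genes, all with a more positive day change in HOXB13 (7.87%), led by Pcolce2 (4.97 ± 0.16), P3h2 (4.35 ± 0.11) and the lysyl oxidase Loxl2 (1.76 ± 0.039).

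All 8 receptors were tested. Itga11, an integrin chain that binds fibrillar collagen, went from 209 to 8.58 RPM between vector and HOXB13 at day 1 (-4.46 ± 0.064, adjusted p = 9.64e-25), and Itga1 was also called lower (-1.99 ± 0.066). At day 21 the receptor kinase Ddr1 was lower in HOXB13, going from 598 to 63.2 RPM between vector and HOXB13 (-3.22 ± 0.031), and Itga10 (-1.69 ± 0.16) and Itga11 (-1.62 ± 0.064) were lower too. By day Itga11 fell in vector (-2.21 ± 0.064) while Ddr1 (1.55 ± 0.031) and Itga10 (1.37 ± 0.16) rose. In HOXB13 Itga2 fell (-1.74 ± 0.15) and Itga1 (1.47 ± 0.066) and Ddr2 (1.39 ± 0.028) rose. The interaction called 3 with a more positive and 2 with a more negative day change in HOXB13 (7.87% and 9.53% of all genes), with Itga11 at 2.84 ± 0.091, Ddr1 at -2.24 ± 0.044 and Itga1 at 1.98 ± 0.094.

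Of 7 proteases that cleave collagen 6 were tested, and at day 1 none was called by virus. At day 21, 4 were called higher and 1 lower in HOXB13 (8.15% and 8.4% of all genes). Ctsk, the main collagen-cleaving protease of osteoclasts, went from 73.6 to 792 RPM between vector and HOXB13 (3.41 ± 0.04), with Mmp13 at 2.35 ± 0.063 and Mmp2 at 1.80 ± 0.03. The cell type that gave the Ctsk reads was not tested, and the low macrophage marker sums are given above. By day all 6 were called higher in HOXB13 and 5 in vector, beside 13.2% and 16.1% of all genes. Mmp13, an interstitial collagenase, went from 2.42 to 266 RPM in vector cells and from 1.29 to 1358 RPM in HOXB13 cells between day 1 and day 21 (6.29 ± 0.063 and 9.21 ± 0.063). Mmp8 went from 0.32 to 85.1 RPM and from 0.0604 to 31.4 RPM in the same order. Mmp2 rose by 1.70 ± 0.03 in vector, and Ctsk by 3.69 ± 0.04 in HOXB13. The interaction called 4 with a more positive and 1, Mmp8, with a more negative day change in HOXB13 (7.87% and 9.53% of all genes). The sign for Mmp8 changed with edgeR and DESeq2. The interaction was 2.92 ± 0.088 for Mmp13, 2.60 ± 0.056 for Ctsk and 1.91 ± 0.042 for Mmp2. In the HOXB13 cells of day 21 the collagen share of reads and the summed level of these proteases (5394 to 5572 RPM, against 1521 to 1560 in vector) were thus both the highest of the 4 groups.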

How the data were processed

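The deposited signal values are on a linear scale, the authors' reads per 1000000 reads (RPM) after TMM scaling of each library. Per the submitters' processing notes the tools were STAR 2.7.2a, HTSeq 0.6.1, edgeR and DESeq2, with no step named for each. Those notes name GRCh38 although genes carry mouse Ensembl identifiers; the build that was used is not known from these notes. Every value above 0 came to a whole number of reads within 0.01 (100% of values), so reads were recovered. Names, coordinates and lengths came from GENCODE M21 (GRCm38), in which 55394 of 55573 genes and all 44 collagen genes matched.

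The 13516 genes that reached 1 RPM in 3 or more libraries were put on log2(RPM + 1) and fitted with limma 3.58.1 (eBayes with trend, R 4.3.3), with 1 mean per group over all 12 libraries and 5 contrasts. Tests were two-sided with Benjamini-Hochberg adjustment per contrast and a threshold of 0.05. The collagen share of gene reads and the chain ratios were tested by exact permutation over libraries. Lengths were those of the longest principal transcript. Collagen genes called in any contrast with a group mean of at least 5 RPM, and Col1a1, Col1a2, Col3a1 and Col2a1, are given in every library, and up to 3 called genes of each pathway list per contrast are named. The members, the lists and the markers were chosen with earlier results of these data known. Intervals and floors (3 reads over a group, 0.0614 to 0.0793 RPM) cover counting error only. Alternatives tried were another pseudocount (0.25 or 4), no filter or one at 5 RPM, median of ratios, quantile normalization, no TMM factors, a replicate block, only the libraries compared, edgeR 4.0.16 and DESeq2 1.42.0 on recovered reads, and leaving out each library; ratios and levels per length by all annotated exons were added after the data were seen. The fit was also tested on simulated data.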

Additional observations from a re-analysis of the deposited data

Results flagged for a closer look

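The day change of 19 collagen genes differed between vector and HOXB13 cells by the interaction in limma on log2(RPM + 1), at an adjusted p under 0.05 and at least 2-fold. A positive value means a larger or less negative change from day 1 to day 21 in HOXB13. Among fibrillar chains the interaction was 1.08 for Col1a1, 1.62 for Col3a1, 1.75 for Col5a1, 2.35 for Col5a3, 2.03 for Col11a1 and 1.43 for Col27a1. In the type IV network it was 1.59 for Col4a1, 1.53 for Col4a2, -2.02 for Col4a4 and -1.11 for Col4a6. It was 2.12 for Col12a1 and 3.40 for Col14a1 among FACITs, and 1.34 for Col6a2 and 2.40 for Col6a3 in type VI. The other values were -1.42 for Col10a1, 1.54 for Col26a1, 1.41 for Col7a1, -1.48 for Col23a1 and 1.43 for Col18a1. Those of Col10a1 and Col26a1 rest on reads of 1 group, and their fitted changes depend on the added 1. The gap of 1 library to the others was not tested in groups of 3; the comparison of libraries within a group is given with the description of the data.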

How the results depend on the processing

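On the recovered reads edgeR called 15, 17, 13, 12 and 19 collagen genes at day 1, at day 21, by day in vector, by day in HOXB13 and in the interaction. The total of called collagen genes moved by less than 1.5 times under every alternative, although small counts in 1 direction moved more: the 2 higher at day 1 became 0 to 5, the 2 lower by day in HOXB13 became 1 with a pseudocount of 4, a filter of 5 RPM or without any 1 HOXB13 library of day 1, and the 4 negative interactions became 1 with a pseudocount of 4 and 2 with a filter of 5 RPM. The totals ran from 8 to 15 at day 1, 13 to 17 at day 21, 8 to 13 by day in vector, 9 to 14 by day in HOXB13 and 15 to 20 for the interaction. Leaving out each library gave 10 to 11, 14 to 16, 9 to 12, 10 to 12 and 18 to 19, and differences in collagen share of -1.17 to -1.12, 0.929 to 1.08, -0.245 to -0.0909 and 1.95 to 2.01 percentage points (day 1, day 21, vector by day, HOXB13 by day). Over single collagen genes, 3418 of 3474 recomputed values kept their side of the threshold, 25 newly passed and 20 no longer passed in the same direction, and 11 changed sign and passed in one or both fits; of the 3418, 32 changed sign without passing in either fit. Without the TMM factors the sign changed for the interaction of Col4a5 (-0.22; -0.20 after quantile normalization) and for Col4a6 by day in HOXB13 (-0.16). After quantile normalization it changed for Col1a1 by day in HOXB13 (-0.58) and in the interaction (-0.0247), for Col5a2 at day 1 (0.27), at day 21 (-0.00511) and in the interaction (-0.28), for Col4a1 (0.18), Col8a1 (0.0802), Ddr2 (0.0708) and Mmp2 (0.012) at day 1. Without the TMM factors it changed at day 1 for Col5a2 (0.0411) and Mmp2 (0.10), and for Mmp8 in the interaction with edgeR (0.74) and DESeq2 (0.92); the cause was not tested. Called genes over the whole table at day 1 were 973 higher and 819 lower, and 1302 and 655 without the TMM factors; by day in HOXB13 they were 1778 and 1418, and 1384 and 1995, and in the interaction 1064 and 1288, and 754 and 1826. Equal replicate numbers gave residual correlations of -0.0992 to 0.103 between groups, 1 of 18 above 0.1, and unequal numbers gave -0.0752 to 0.0695. The 1 above 0.1 was between replicate 2 of vector and replicate 2 of HOXB13 at day 1, which each stood apart within their group. Whether those libraries shared some handling was not tested. No general pairing by number was seen in these values, which cannot show how the wells were numbered or handled. With the replicate block the called collagen genes were 11, 15, 11, 12 and 19, as without it. Genes under about 5 RPM are limited by few reads, and their changes on log2(RPM + 1) are understated.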
